A study of Mus musculus with 8 samples.

Results

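The 44 genes described here encode components of cAMP, PKA and CREB signaling: G protein alpha subunits, adenylyl cyclases, subunits and inhibitors of protein kinase A (PKA), cAMP phosphodiesterases, the cAMP-activated exchange factors of the Epac type, transcription factors of the CREB family with their coactivators, and 4 regulators at the receptor or at PKA. They were taken from a list of names and not by any measured value, and all 44 were found among the 35458 genes with reads. RNA was sequenced from N2A tumors, 4 from SR59230A-treated mice (numbered 1 to 4) and 4 from vehicle-treated mice (numbered 0 to 3). N2A (Neuro-2a) is a single mouse neuroblastoma (NB) line, implanted subcutaneously in 4-week-old female A/J mice, the strain from which it came, so every tumor had the same tumor cell genotype and an immunocompetent host. SR59230A, a β-adrenergic receptor blocker, was given i.p. at 10 mg/kg in physiological solution 2 times a day from the time tumors were palpable, and vehicle mice received that solution alone. The question for these genes was whether the machinery downstream of the β-adrenergic receptors differed in RNA level or in transcript use between SR59230A and vehicle tumors.

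As background, a β-adrenergic receptor bound by a catecholamine activates the stimulatory G protein, whose alpha subunit switches on adenylyl cyclase, while inhibitory alpha subunits restrain it. The cAMP formed binds the regulatory subunits of PKA and frees the catalytic subunits, which phosphorylate CREB in the nucleus, where CREB recruits CRTC proteins and the acetyltransferases CBP and p300 to genes that carry a cAMP response element. Phosphodiesterases break cAMP down, Epac proteins carry a PKA-independent branch to Rap, and arrestins with G protein-coupled receptor kinases silence the receptor. In cells of the sympathetic lineage, from which NB arises, this pathway controls among others the gene of tyrosine hydroxylase. Much of it works through phosphorylation and second messenger levels, which RNA sequencing does not measure.

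Some of these genes have alternative exons that change the protein, and 3 such exons are shown because they set apart transcripts whose shares are given below. Each is printed 5′ to 3′ as it lies in the spliced GENCODE transcript, with the exon in capitals and 15 bases of the neighboring exons in lower case.
Creb1-201: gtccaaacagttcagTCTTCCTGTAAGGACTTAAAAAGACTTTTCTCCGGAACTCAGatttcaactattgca
Gnas-208: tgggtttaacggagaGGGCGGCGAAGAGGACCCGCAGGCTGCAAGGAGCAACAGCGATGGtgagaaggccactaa
Crebbp-201: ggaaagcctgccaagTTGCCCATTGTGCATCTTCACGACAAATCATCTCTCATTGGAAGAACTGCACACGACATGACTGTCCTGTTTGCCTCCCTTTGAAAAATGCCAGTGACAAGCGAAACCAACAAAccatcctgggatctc

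The Creb1 exon (GRCm38 chr1:64559727-64559768, plus strand, exon 4 of 9) has 42 bases, or 14 codons, and separates CREB alpha (341 codons, Creb1-201) from CREB delta (327 codons, Creb1-202). The Gnas exon (GRCm38 chr2:174336747-174336791, plus strand, exon 3 of 12) has 45 bases and separates the long form of the stimulatory alpha subunit (394 codons, Gnas-208) from the short form (380 codons, Gnas-207), which also begins the next exon 3 bases earlier. The Crebbp exon (GRCm38 chr16:4137366-4137479, minus strand, exon 5 of 31) has 114 bases, or 38 codons. It is present in Crebbp-201 (2441 codons) and absent from Crebbp-205 (2403 codons). All 3 exons lie within coding sequence.

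The cAMP response element itself was sought in RefSeq promoter windows of 300 bases (GRCm38.p6, 250 before and 50 after each start), which were available for 30 of the 44 genes. The full element, TGACGTCA on either strand, occurred in 1 of the 30, Prkar1a, beside 2.03% of 27025 genes with windows. It is shown in capitals, 49 bases upstream of one annotated start of Prkar1a on the plus strand (GRCm38.p6 chr11:109650889-109650918).
Prkar1a: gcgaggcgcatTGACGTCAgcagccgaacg

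The core TGACG on either strand, which the full element contains, occurred in 15 of the 30 genes, beside 23% of all genes with windows. A match is a property of these letters and was not tested as a binding site.

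Before the values, the libraries need a short account. Estimated reads per tumor ran from 23484190 to 44045575, and the 44 genes took 0.238% to 0.336% of them in SR59230A tumors and 0.265% to 0.361% in vehicle tumors. Summed CPM (reads scaled to library size with TMM factors) of 12 noradrenergic neuroblast markers were 681 to 867 in SR59230A tumors and 835 to 1161 in vehicle tumors, with Hand2 and Gata2 present throughout. Summed CPM of 14 skeletal muscle markers were 2627 in SR59230A tumor 1, 215 in tumor 2, 48.3 in tumor 3 and 22.2 in tumor 4, against 21.7 to 24.7 in vehicle tumors. Macrophage markers summed to 355 to 561 CPM in SR59230A tumors and 233 to 552 CPM in vehicle tumors, and T and NK cell markers to 7.75 to 10.6 CPM with SR59230A and 9.48 to 12.3 CPM with vehicle. TPM (a scaled level that divides by transcript length) separated the tumors by number: in 20 of the 42 tested members, and in 49.2% of all tested genes, the 4 tumors numbered 1 or 2 all exceeded the other 4. TPM was therefore used for the order of genes within tumors, and CPM for the comparison of SR59230A with vehicle. These are whole tumors, so fewer cells of a type and less RNA per cell cannot be told apart, and the labels give 4 numbered tumors a group without saying that each came from its own mouse. The study itself describes this sequencing as done in duplicate. In each of the 12 pairs of samples within a group, the median gene differed by 5.85 to 32.4 times the chi-square of sampling noise (lowest in vehicle tumors 1 and 2), so none was 1 library deposited again, but separate samples of 1 tumor cannot be told apart from separate mice. Every SD, p and interval below takes the 4 as separate tumors, and would measure partly technical spread if some were not.

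Levels spanned several orders of magnitude. Orders within a role are among the 44 genes alone, and Creb5, Atf4, Atf2 and Pde10a, outside them, had higher mean TPM than the leading CREB family gene or phosphodiesterase given here. Creb5 averaged 4150 TPM with SR59230A and 3430 TPM with vehicle, above Gnas, and ran from 1328 to 6903 CPM within the SR59230A tumors. Whether all reads assigned to Creb5 come from that gene was not tested, so its place in the order is uncertain. Mean TPM over the 8 tumors was at least 1 in 34 genes, at least 100 in 2 genes (Gnas and Prkar1a), and under 1 in 10 genes. Adcy1 and Adcy8, neuronal calcium-stimulated cyclases, had at most 22 and 15 estimated reads in any tumor and were not tested.

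**Figure D1:**
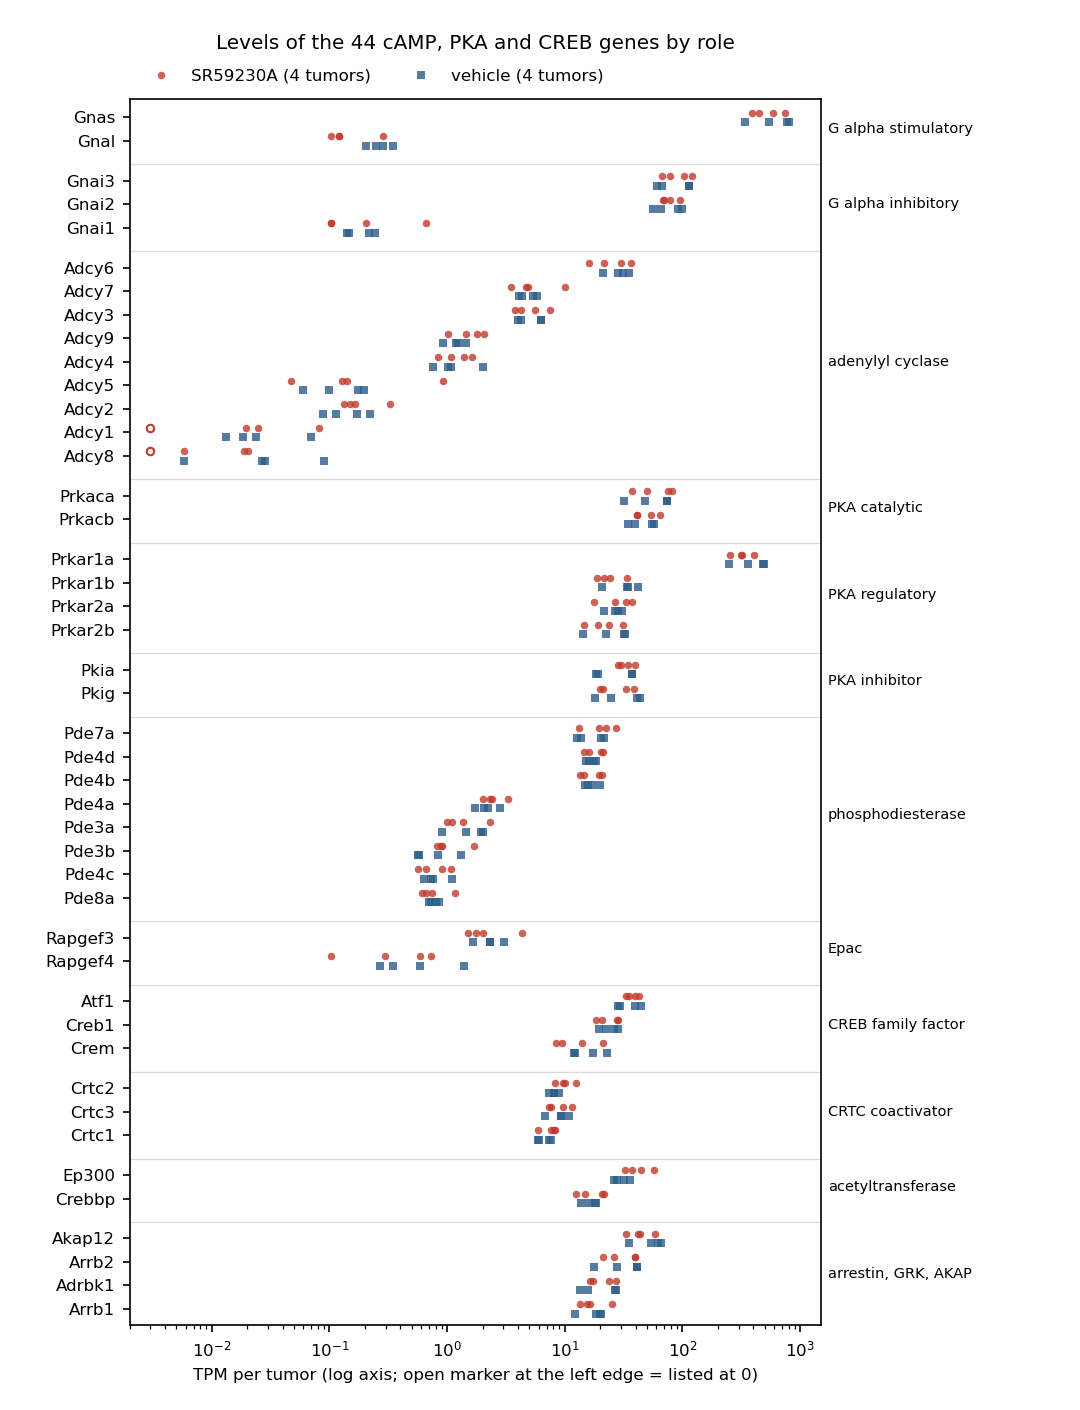
TPM of each of the 44 genes in each tumor on a log axis, grouped by role, with SR59230A tumors as red circles above vehicle tumors as blue squares, and open markers at the left edge for genes listed at 0. Gnas and Prkar1a lay above 200 TPM in all 8 tumors, and the groups overlapped for nearly every gene.

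Among the alpha subunits, Gnas, which encodes the stimulatory alpha subunit, had 592, 739, 447 and 393 TPM in SR59230A tumors 1 to 4, against 546, 774, 813 and 340 TPM in vehicle tumors 0 to 3. Its close relative Gnal, the olfactory and striatal form, averaged 0.158 ± 0.0854 TPM in SR59230A tumors and 0.271 ± 0.0604 TPM in vehicle tumors (SD, n = 4 each). Gnas held at least 99.9% of their summed TPM in every tumor. Of the inhibitory subunits, Gnai3 (92.5 ± 24.1 TPM with SR59230A and 88.7 ± 29.2 with vehicle, SD, 4 tumors each) and Gnai2 (78.1 ± 12.7 TPM with SR59230A and 77.9 ± 19.9 with vehicle) overlapped in range, and Gnai1 stayed under 0.67 TPM.

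Adcy6, a calcium-inhibited cyclase, led the 9 cyclases. It had 30.3, 36.4, 21.3 and 15.9 TPM in SR59230A tumors, against 31, 35, 28.3 and 21.2 TPM in vehicle tumors, and held 64.1% ± 2.58 of cyclase TPM with SR59230A and 69% ± 3.43 with vehicle. Adcy7 and Adcy3 followed at means of 5.36 and 5.26 TPM over 8 tumors with overlapping ranges, and both ranges lay below that of Adcy6. Adcy9 and Adcy4 averaged 1.39 and 1.23 TPM, and Adcy5 and Adcy2 0.221 and 0.171 TPM. Adcy9 took 3.58% to 4.22% of cyclase TPM in SR59230A tumors and 2.85% to 2.93% in vehicle tumors, without overlap. Of the 44 shares of a role, those of Adcy9 and of the pair Ep300 and Crebbp, whose shares mirror each other, did not overlap between groups, and no such share was computed for other genes. The CPM of Adcy9 overlapped (4.91, 5.22, 5.21 and 3.95 with SR59230A, against 4.53, 3.79, 3.41 and 4.14 with vehicle).

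The catalytic subunits of PKA came from both widely expressed genes. Prkaca had 75.1, 81.9, 37.2 and 49.5 TPM in SR59230A tumors, against 48.1, 73.5, 73.7 and 31.8 TPM in vehicle tumors, and Prkacb averaged 50.3 ± 11.2 TPM with SR59230A and 46.4 ± 11.2 TPM with vehicle (SD, 4 tumors each). Prkaca made up 54% ± 4.7 of catalytic TPM in SR59230A tumors and 54.2% ± 4.23 in vehicle tumors. The regulatory subunits were far less even. Prkar1a, the widely expressed type I subunit, accounted for 79.8% to 83% of regulatory TPM in SR59230A tumors and 81.3% to 83.5% in vehicle tumors. Prkar1b (neuronal type I), Prkar2a and Prkar2b (type II) averaged 28.6, 27.9 and 23.7 TPM over 8 tumors, with ranges that overlapped one another and lay below that of Prkar1a.

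Pkia and Pkig encode small heat-stable peptides that bind and inhibit free catalytic subunits. Pkia averaged 33.2 ± 5.09 TPM in SR59230A tumors and 28.1 ± 10.8 TPM in vehicle tumors, and Pkig 28.3 ± 9.2 TPM with SR59230A and 31.9 ± 12.6 TPM with vehicle (SD, 4 tumors each). Their ranges overlapped.

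Of the 8 phosphodiesterases among the 44, which break cAMP down, 3 stood above the rest. Pde7a, a high-affinity cAMP phosphodiesterase, had 27.3, 22.2, 13.2 and 19.4 TPM in SR59230A tumors, against 12.6, 20.5, 21.4 and 13.7 TPM in vehicle tumors. Pde4d (mean 17.4 TPM) and Pde4b (mean 17 TPM), of the rolipram-sensitive type 4 family, overlapped with it. Pde4a averaged 2.36 TPM, below the range of those 3, and Pde3a, Pde3b, Pde4c and Pde8a averaged 1.51 TPM or less. Pde3b, the main cAMP phosphodiesterase of adipocytes, was highest in SR59230A tumor 3 (4.48 CPM) and vehicle tumor 3 (3.52 CPM). Adipocyte markers summed to 293 CPM in that SR59230A tumor, the highest of the 8, and to 56 CPM in vehicle tumor 3, and their part in Pde3b was not tested. Transcripts annotated as retained introns held 39.3% of Pde3b reads in SR59230A tumor 3 and 46.6% in vehicle tumor 3, on 92 estimated reads each. In the other tumors they held 14.1% to 41.7%, and their part was not tested either.

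The Epac genes were low. Rapgef3 (Epac1) averaged 2.41 ± 1.3 TPM in SR59230A tumors and 2.33 ± 0.571 TPM in vehicle tumors, and Rapgef4 (Epac2) 0.427 ± 0.281 TPM with SR59230A and 0.647 ± 0.51 TPM with vehicle (SD, 4 tumors each). In Rapgef4, 1 tumor set the vehicle mean: the CPM were 1.36, 0.234, 2.14 and 1.06 with SR59230A, against 1.95, 0.799, 0.664 and 5.36 with vehicle.

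Of the 3 CREB family genes among the 44, Atf1 had the highest level, at 42.9, 39.7, 33.3 and 34.8 TPM in SR59230A tumors, against 28.2, 39.9, 44.7 and 29.6 TPM in vehicle tumors. Creb1 averaged 23.8 ± 4.91 TPM with SR59230A and 24.1 ± 4.08 TPM with vehicle, and Crem, whose gene makes both activators and the repressor ICER, averaged 13.3 ± 5.82 TPM with SR59230A and 16.1 ± 5.2 TPM with vehicle (SD, 4 tumors each). Neighbors in this order overlapped. The CRTC coactivators, which move to the nucleus when dephosphorylated, were close to each other, with Crtc2 at 9.09, Crtc3 at 9.05 and Crtc1 at 7.12 TPM over 8 tumors. Ep300, the acetyltransferase p300, had 57.7, 44.3, 37.5 and 32.6 TPM in SR59230A tumors, against 27.8, 36, 32.1 and 26 TPM in vehicle tumors, and exceeded Crebbp (CBP) in range. The share of Ep300 in their sum was 67.3% to 75% in SR59230A tumors and 60.4% to 66.6% in vehicle tumors. By CPM, which does not divide by length, Ep300 overlapped between groups (133 to 156 with SR59230A, 117 to 147 with vehicle).

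Of the regulators, Akap12 (gravin), which anchors PKA near β-adrenergic receptors, was highest, with 41.8, 58.2, 32.8 and 43.7 TPM in SR59230A tumors, against 54.4, 65.5, 62.1 and 35.2 TPM in vehicle tumors. Arrb2, Adrbk1 (the receptor kinase now named Grk2) and Arrb1 averaged 31.7, 21 and 17.7 TPM over 8 tumors, each overlapping its neighbor in the order.

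SR59230A was then compared with vehicle. By edgeR's quasi-likelihood test with Benjamini-Hochberg adjustment, 0 of the 42 members tested passed an adjusted p under 0.05 with a log2 fold change of 0.5 or more in size, beside 0% of all 15207 genes tested (0 genes). At an unadjusted p under 0.05 there were 2 members, Prkar1b lower and Pkia higher, beside 4.64% of all genes (706). DESeq2 called 0 members and 0.22% of the genes it adjusted (37), with 3 members (Prkar1b, Prkar1a and Akap12) at an unadjusted p under 0.05 beside 3.44% of the genes with a p. The lowest adjusted p of any gene by edgeR was 0.996. Fold changes were above 0 in 20 members and below 0 in 22, and their median was -0.02 on the log2 scale, beside a median of -0.00 over all tested genes. The groups overlapped in CPM in all 42 tested members, while they did not overlap in 2.61% of all tested genes.

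**Figure D2:**
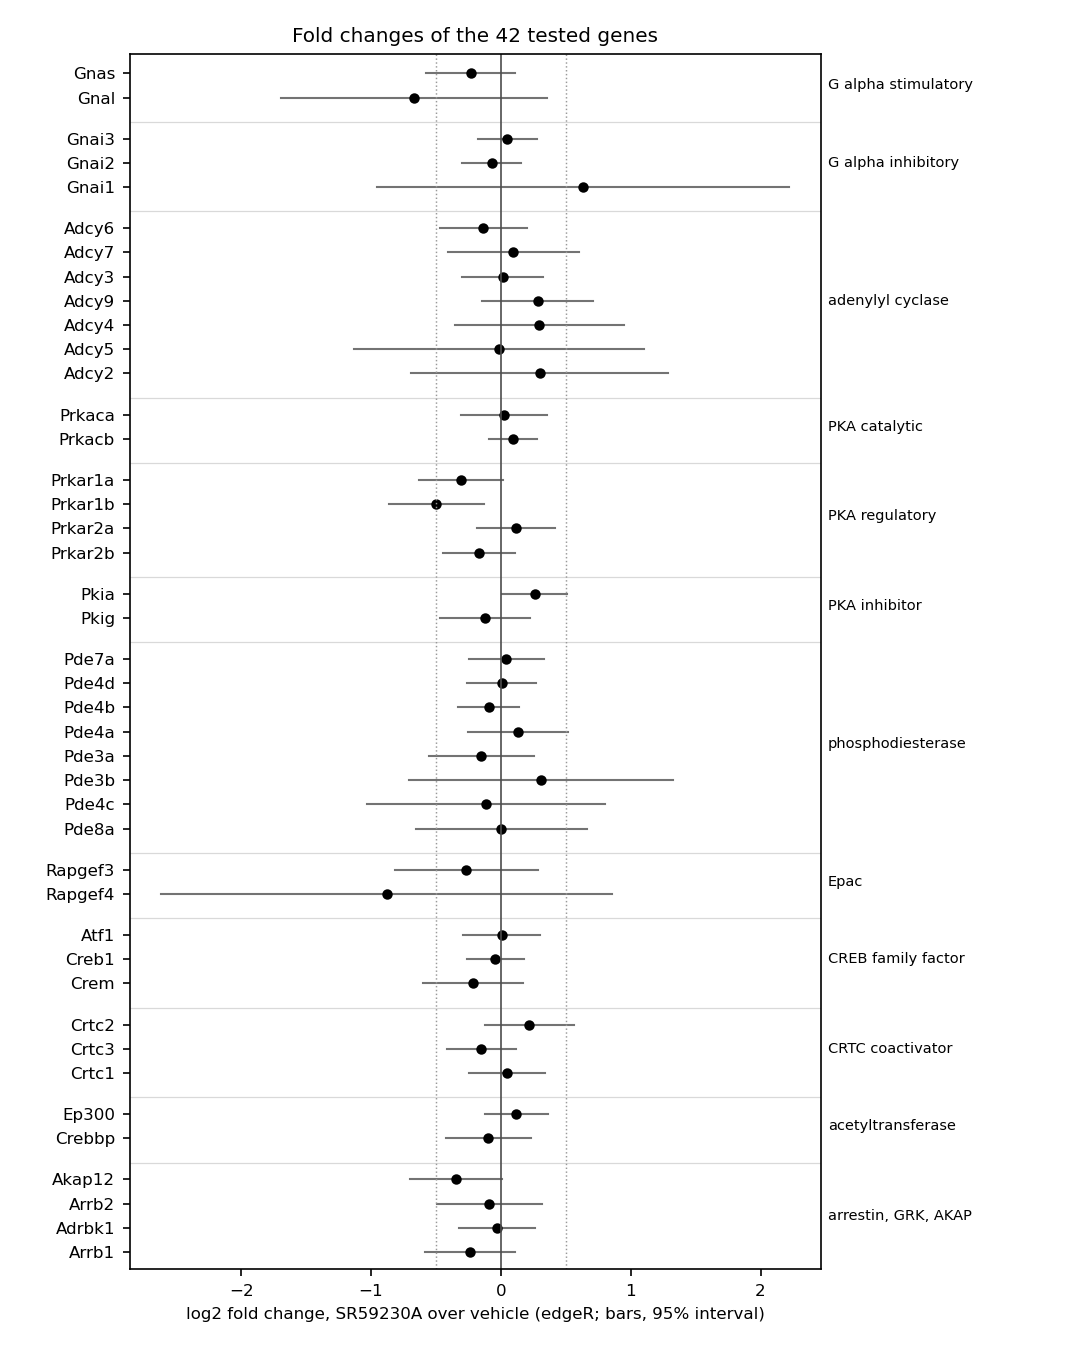
Log2 fold change of the 42 tested genes, SR59230A over vehicle, as points with 95% intervals from edgeR, grouped by role, with dotted lines at the fold threshold of 0.5 in either direction. The intervals of Prkar1b and Pkia lay on 1 side of 0, and those of the low genes Rapgef4, Gnai1 and Adcy5 were the widest.

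The intervals show what size of change these 8 tumors could leave unseen. The 95% interval lay within 1 log2 unit of 0 in 35 of the 42 members and within 0.5 in 20. It was narrow for Prkacb (-0.09 to 0.28), Gnai3 (-0.17 to 0.28), Gnai2 (-0.30 to 0.16), Creb1 (-0.26 to 0.18), Pde4d (-0.26 to 0.27) and Pde4b (-0.33 to 0.14). It was wide for the low genes Rapgef4 (-2.62 to 0.86), Gnai1 (-0.95 to 2.22), Adcy5 (-1.13 to 1.10) and Gnal (-1.70 to 0.35). A fall of more than 1 log2 unit was not excluded for Rapgef4, Adcy5 and Gnal. A rise of that size was not excluded for Gnai1 and Adcy5.

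The member with the smallest p was Prkar1b. It had 32.1, 47.5, 37.5 and 39.7 CPM in SR59230A tumors, against 66.3, 60.5, 51.6 and 42.7 CPM in vehicle tumors, so that 1 SR59230A tumor lay above the lowest vehicle tumor. Its log2 fold change was -0.50 (SE 0.16, edgeR adjusted p = 0.996, and no member had a lower one), and its interval was -0.86 to -0.13. Elavl4, a neuronal gene of the neuroblast list, was also lower with SR59230A (119, 134, 96.2 and 136 CPM with SR59230A, against 195, 158, 200 and 137 CPM with vehicle), and 4 of the 11 tested neuroblast markers, all lower, had an unadjusted p under 0.05 and none passed the adjusted test. The part of tumor cell content in Prkar1b was not tested.

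Prkar1a had 532, 620, 567 and 744 CPM in SR59230A tumors, against 830, 767, 786 and 668 CPM in vehicle tumors. All SR59230A tumors except tumor 4 lay below every vehicle tumor. Its log2 fold change was -0.31 (SE 0.14, interval -0.63 to 0.02). Over 20 alternatives it ran from -0.42 to -0.22. The value of -0.42 came without SR59230A tumor 4 and vehicle tumors 0 and 3, the libraries with reads on satellite-like transcript models. The value of -0.22 came without SR59230A tumors 1 and 2, the libraries with muscle reads. Prkar2b, the third regulatory subunit with a value below 0, had 37.6, 44, 34 and 42.3 CPM with SR59230A, against 47.4, 46.8, 46.8 and 36.6 CPM with vehicle (log2 fold change -0.17, SE 0.12), and only vehicle tumor 3 fell among the SR59230A tumors. Prkar2a had a log2 fold change of 0.12 (SE 0.13).

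The PKA inhibitor Pkia had 64.9, 68.4, 75 and 67.1 CPM in SR59230A tumors, against 49.2, 61.1, 65.8 and 53.7 CPM in vehicle tumors, and vehicle tumor 2 lay just above the lowest SR59230A tumor. Its log2 fold change was 0.26 (SE 0.11, interval 0.01 to 0.51). Pkig had a value of -0.12 (SE 0.16). For the catalytic subunits the values were 0.03 (SE 0.15) for Prkaca and 0.09 (SE 0.08) for Prkacb.

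Set against each other within a tumor, which no scaling between libraries can change, the 4 regulatory genes summed to 3.09, 3.45, 3.94 and 4.21 times the TPM of the 2 catalytic genes in SR59230A tumors, against 5.09, 4.61, 4.53 and 4.61 times in vehicle tumors. The groups did not overlap, with means of 3.67 ± 0.5 and 4.71 ± 0.255 (SD, n = 4 each). From estimated reads in place of TPM the ratio was 3.32 to 4.34 with SR59230A and 4.36 to 5.22 with vehicle, again without overlap but by a small margin. The ratio was 1 of 6 such quantities computed, it adds up genes already described, and it was given no test. It was lowest in SR59230A tumors 1 and 2, the tumors with the most muscle marker reads. SR59230A tumors 3 and 4 were also below all vehicle tumors, by estimated reads only narrowly for tumor 4 (4.34 against 4.36). SR59230A tumor 3 still had 48.3 CPM of muscle markers, above the 21.7 to 24.7 CPM of vehicle tumors. The part of muscle in this ratio was not tested. The ratio of inhibitor to catalytic TPM was 0.499 to 0.635 in SR59230A tumors and 0.503 to 0.627 in vehicle tumors.

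**Figure D3:**
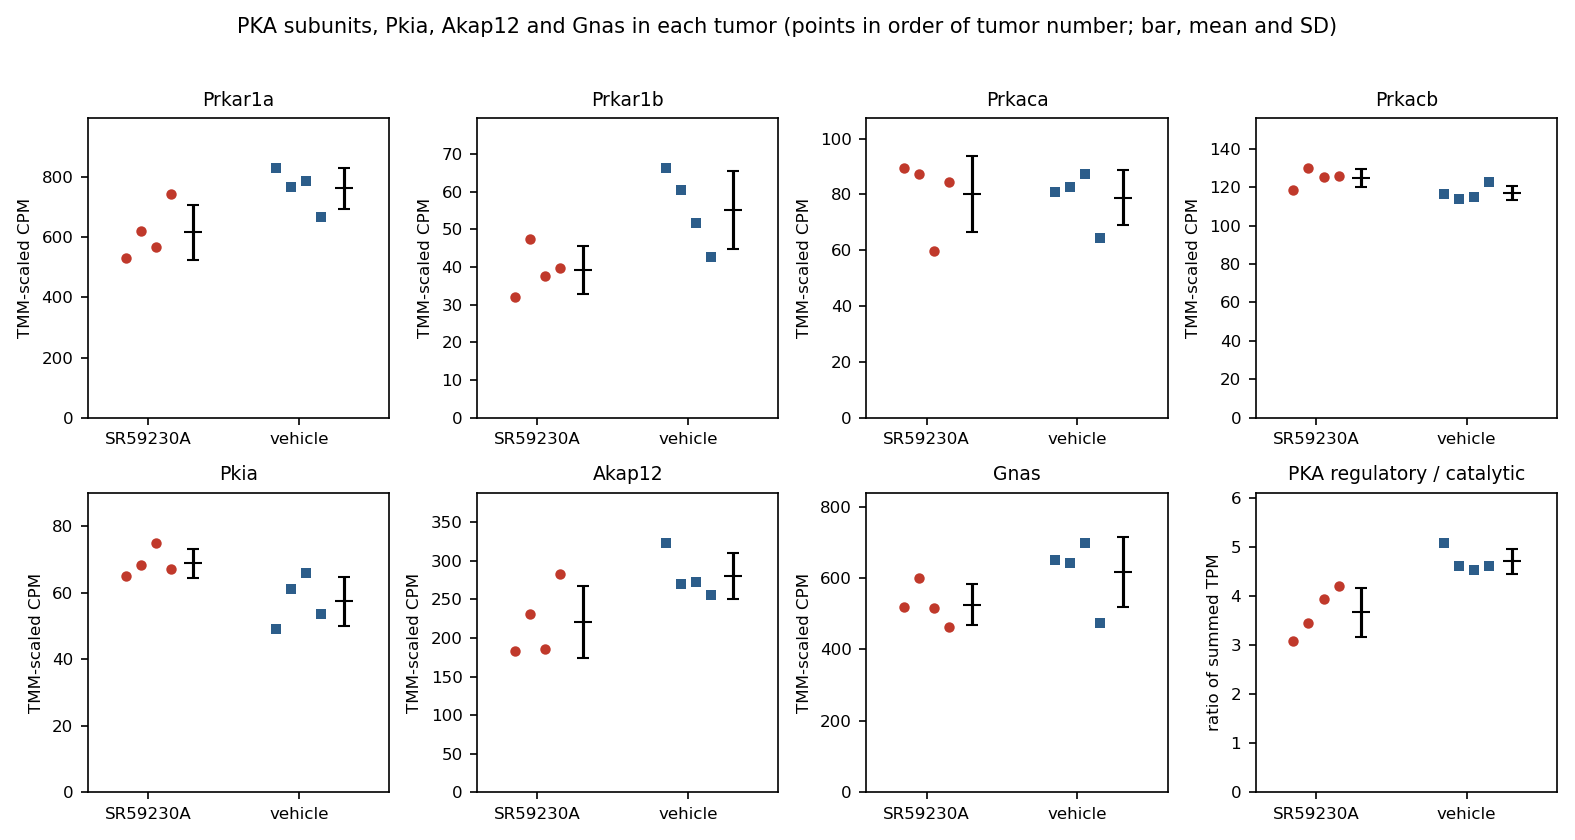
TMM-scaled CPM of Prkar1a, Prkar1b, Prkaca, Prkacb, Pkia, Akap12 and Gnas, and the ratio of regulatory to catalytic TPM, in each tumor, with SR59230A left and vehicle right, bars showing the mean and SD. The ratio, 1 of 6 such quantities computed and given no test, was 3.09 to 4.21 in SR59230A tumors and 4.53 to 5.09 in vehicle tumors. From estimated reads it was 3.32 to 4.34 with SR59230A and 4.36 to 5.22 with vehicle. Each single gene overlapped.

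Upstream of PKA, Gnas had 520, 601, 517 and 462 CPM in SR59230A tumors, against 652, 642, 699 and 475 CPM in vehicle tumors, with vehicle tumor 3 among the SR59230A values. Its log2 fold change was -0.23 (SE 0.15, interval -0.57 to 0.11). Gnal had 0.409, 0.382, 0.487 and 1.37 CPM with SR59230A, against 0.884, 0.881, 1.15 and 1.3 CPM with vehicle, where SR59230A tumor 4 was the highest of all 8 (log2 fold change -0.67, SE 0.46). Among the cyclases, Adcy9 had a log2 fold change of 0.28 (SE 0.19) and Adcy6 of -0.14 (SE 0.15).

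At the receptor end, Akap12 had 183, 231, 186 and 283 CPM in SR59230A tumors, against 323, 271, 273 and 256 CPM in vehicle tumors. Its log2 fold change was -0.35 (SE 0.16, interval -0.70 to 0.01), and only SR59230A tumor 4 reached the vehicle range. Arrb1, the arrestin 2 gene, had 53.7, 80.3, 62.1 and 71 CPM with SR59230A, against 98.6, 74.7, 72.3 and 69.4 CPM with vehicle (log2 fold change -0.24, SE 0.16). It was -0.11 without vehicle tumor 0, -0.15 without SR59230A tumor 1 and -0.05 with an offset for transcript length. Arrb2 and Adrbk1 had values of -0.09 (SE 0.18) and -0.03 (SE 0.13).

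In the nuclear part of the pathway, Crtc2 had 16.1, 11.9, 15.4 and 13.9 CPM in SR59230A tumors, against 13.1, 11, 10.8 and 14.3 CPM in vehicle tumors (log2 fold change 0.22, SE 0.15). From protein-coding transcripts alone its value was -0.08, the opposite sign. Retained intron transcripts held 18.3% of its reads on average. Crtc3 had 24.7, 29.4, 25.4 and 26.1 CPM with SR59230A, against 34.5, 29.5, 27.5 and 25.7 CPM with vehicle (log2 fold change -0.15, SE 0.12). Crem had 12.6, 8.43, 8.18 and 8.62 CPM with SR59230A, against 10.3, 12, 10.3 and 11.3 CPM with vehicle, and SR59230A tumor 1 was the highest of the 8 (log2 fold change -0.21, SE 0.17). Creb1, Atf1, Crtc1, Crebbp and Ep300 had values of -0.04, 0.01, 0.05, -0.10 and 0.12. The 8 phosphodiesterases ranged between -0.15 (Pde3a) and 0.31 (Pde3b).

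Other genes of the pathway, 52 in a list of further anchors, phosphodiesterases, kinases, G protein subunits and CREB relatives, were counted in the same way. Of 48 tested, 0 passed the edgeR test in either direction, 2 had an unadjusted p under 0.05, both lower, and the median log2 fold change was -0.08. Gnaz, an inhibitory alpha subunit of neurons, had 9.3, 11.5, 6.33 and 9.79 CPM in SR59230A tumors, against 23.4, 18.5, 15.5 and 11.3 CPM in vehicle tumors (log2 fold change -0.89, SE 0.25, the smallest p of the list). Grk3, a receptor kinase close to Grk2, had 67.9, 58.3, 73.5 and 67.4 CPM with SR59230A, against 101, 79.2, 78.3 and 81.9 CPM with vehicle, without overlap (log2 fold change -0.35, SE 0.12). Its exact permutation p of 0.0286 (two-sided, 70 assignments) follows from the lack of overlap itself and adds nothing to it. Groups did not overlap in 1 of the 48 genes, Grk3, beside 2.61% of all tested genes. Gprasp1, Pde7b and Akap3 came next in order of p, with log2 fold changes of -0.28 (SE 0.13), 0.71 (SE 0.35) and -0.44 (SE 0.24).

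Of 30 genes known as CREB targets, 23 were tested, 0 passed, 2 had an unadjusted p under 0.05, both lower, and the median was 0.09. Btg2, an antiproliferative early gene, had 18.4, 26.1, 29.1 and 23.8 CPM in SR59230A tumors, against 43.6, 37.3, 28.7 and 38.8 CPM in vehicle tumors (log2 fold change -0.61, SE 0.17, the smallest p of the list). Th, which encodes tyrosine hydroxylase and is also a neuroblast marker, had 46.2, 68.1, 61.6 and 91.5 CPM with SR59230A, against 157, 117, 118 and 73.6 CPM with vehicle (log2 fold change -0.80, SE 0.25). Egr2 did not overlap between groups (1.55 to 2.13 CPM with SR59230A, 2.14 to 3.54 CPM with vehicle, log2 fold change -0.54, SE 0.25). Per1 and Vgf had values of 0.88 (SE 0.42) and 0.22 (SE 0.13), and the rest of the list had larger p. Groups did not overlap in 1 of the 23 tested genes, Egr2, and there by a narrow gap. Over all tested genes, groups did not overlap in 2.61% in either direction and in 1.29% with lower values in SR59230A.

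Of the β-adrenergic receptor genes above this machinery, Adrb1 had 0.467 to 1.7 CPM with SR59230A and 0.369 to 1.95 CPM with vehicle (log2 fold change 0.04, SE 0.57).

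Transcript use was compared in the 29 members with at least 2 transcripts that could be tested. By edgeR's diffSpliceDGE, 0 of the 29 passed an adjusted Simes p under 0.05, beside 0.192% of 9368 genes (18), and 1 member, Adcy6, had an unadjusted Simes p under 0.05 beside 1.65% of genes. By limma's diffSplice, 0 passed and 5 had an unadjusted p under 0.05 (Crebbp, Arrb2, Arrb1, Ep300 and Prkar2b), beside 6.58% of genes. In 8 of the 143 member transcripts tested the shares did not overlap between groups, 4 lower and 4 higher with SR59230A, beside 2.43% of 36946 transcripts in all genes (1.22% lower and 1.21% higher). Shares here are of the estimated reads of a gene, so those of its transcripts depend on one another. Among the 8 are both main transcripts of Crebbp, which moved in opposite directions, and 2 transcripts of Arrb2. The 8 are therefore not separate observations, and were not shown to exceed the rate over all transcripts. A share of TPM, which corrects for length, also did not overlap in 5 of the 8. Transcripts of a gene share most of their sequence, so their estimates carry an assignment error that the counts do not show.

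The leading transcript was protein coding in all 44 genes, held over 80% of reads in 25 and under 50% in 4. Gnas reads came mainly from Gnas-208, the long form of the stimulatory alpha subunit with the 45-base exon in capitals above. It held 68.3%, 73.3%, 65.9% and 57.5% in SR59230A tumors, against 63.5%, 73.4%, 74.7% and 49.9% in vehicle tumors. Both annotated transcripts of 394 codons together held 72% ± 5.89 with SR59230A and 71.3% ± 9.11 with vehicle, and those of the short form 8.13% ± 4.14 with SR59230A and 6.2% ± 4.75 with vehicle. Transcripts that start at the upstream Nesp exon, which encodes the secretory granule protein NESP55, held 13.1% ± 2.62 in SR59230A tumors and 15.4% ± 4.58 in vehicle tumors. Gnas reads are therefore not all stimulatory alpha reads.

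Creb1-201, the alpha form with the 42-base exon, held 30.3%, 28.1%, 34% and 22.2% of Creb1 reads in SR59230A tumors, against 22.6%, 28%, 28.5% and 20.3% in vehicle tumors, and Creb1-202, the delta form, held 61.1% ± 6.15 with SR59230A and 64.5% ± 2.88 with vehicle. Since Creb1-202 is annotated as the longer transcript, the balance is closer by TPM, at 26.4% for the alpha form and 36.2% for the delta form over 8 tumors. The groups overlapped for both.

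Crebbp shares did not overlap between groups for either of its main transcripts. Crebbp-205, which lacks the 114-base exon printed above, held 21.7%, 23%, 16.2% and 18.6% of Crebbp reads in SR59230A tumors, against 34.2%, 36.5%, 34.2% and 27.1% in vehicle tumors. Crebbp-201, with the exon, held 70%, 69.2%, 74.9% and 73.5% with SR59230A, against 60.3%, 60.3%, 63.9% and 65.7% with vehicle. The reads behind Crebbp-205 numbered 270 to 1112 in SR59230A tumors and 762 to 1663 in vehicle tumors. Neither tool called it: the Simes p was 0.19 by edgeR and 0.00279 by limma (adjusted p = 0.259 by limma's diffSplice). The 2 transcripts differ in total length as well (10820 bases for Crebbp-201 and 7749 for Crebbp-205), so the estimates do not rest on the exon alone.

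Ep300-201, the full-length form, held 84.7%, 86.6%, 79.9% and 88.3% of Ep300 reads in SR59230A tumors, against 90.7%, 89.9%, 90.1% and 88.4% in vehicle tumors. Its share of TPM was 52.2% over 8 tumors and overlapped between groups, and a short retained intron model of 697 bases, Ep300-207, held 18.3% of Ep300 TPM. The Ep300 share of acetyltransferase TPM given above includes that model.

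Crtc2-203, a retained intron transcript, held 10.6%, 5.51%, 12.6% and 8.7% of Crtc2 reads in SR59230A tumors, against 1.15%, 3.12%, 1.28% and 2.58% in vehicle tumors, without overlap. These shares rest on 31 to 63 estimated reads with SR59230A and 4 to 17 with vehicle (adjusted p = 1 by edgeR's diffSpliceDGE). Adcy6-207, annotated as a target of nonsense-mediated decay, held 5.32%, 1.96%, 5.45% and 1.57% of Adcy6 reads in SR59230A tumors, against 0%, 0.931%, 0% and 0% in vehicle tumors. Its gene had the smallest Simes p of the members (0.0183, adjusted p = 1 by edgeR's diffSpliceDGE). Vehicle tumor 1 was the only vehicle tumor with estimated reads of Adcy6-207 (43, against 31 to 181 in SR59230A tumors). Without that tumor Adcy6 passed the same test (adjusted p = 0.0158). That fit left only vehicle tumors with 0 reads of the transcript, so the pass is not separate support. Over all 44 genes, retained intron transcripts took 1.35% to 3.43% of reads in SR59230A tumors and 0.893% to 2.54% in vehicle tumors. Over all genes the same share was 2.49% to 4.21% with SR59230A and 2.57% to 3.77% with vehicle, highest in SR59230A tumors 3 and 1 and vehicle tumor 3, the tumors that were also highest for the 44 genes. The part of unspliced RNA in the shares of single transcripts was not tested.

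**Figure D4:**
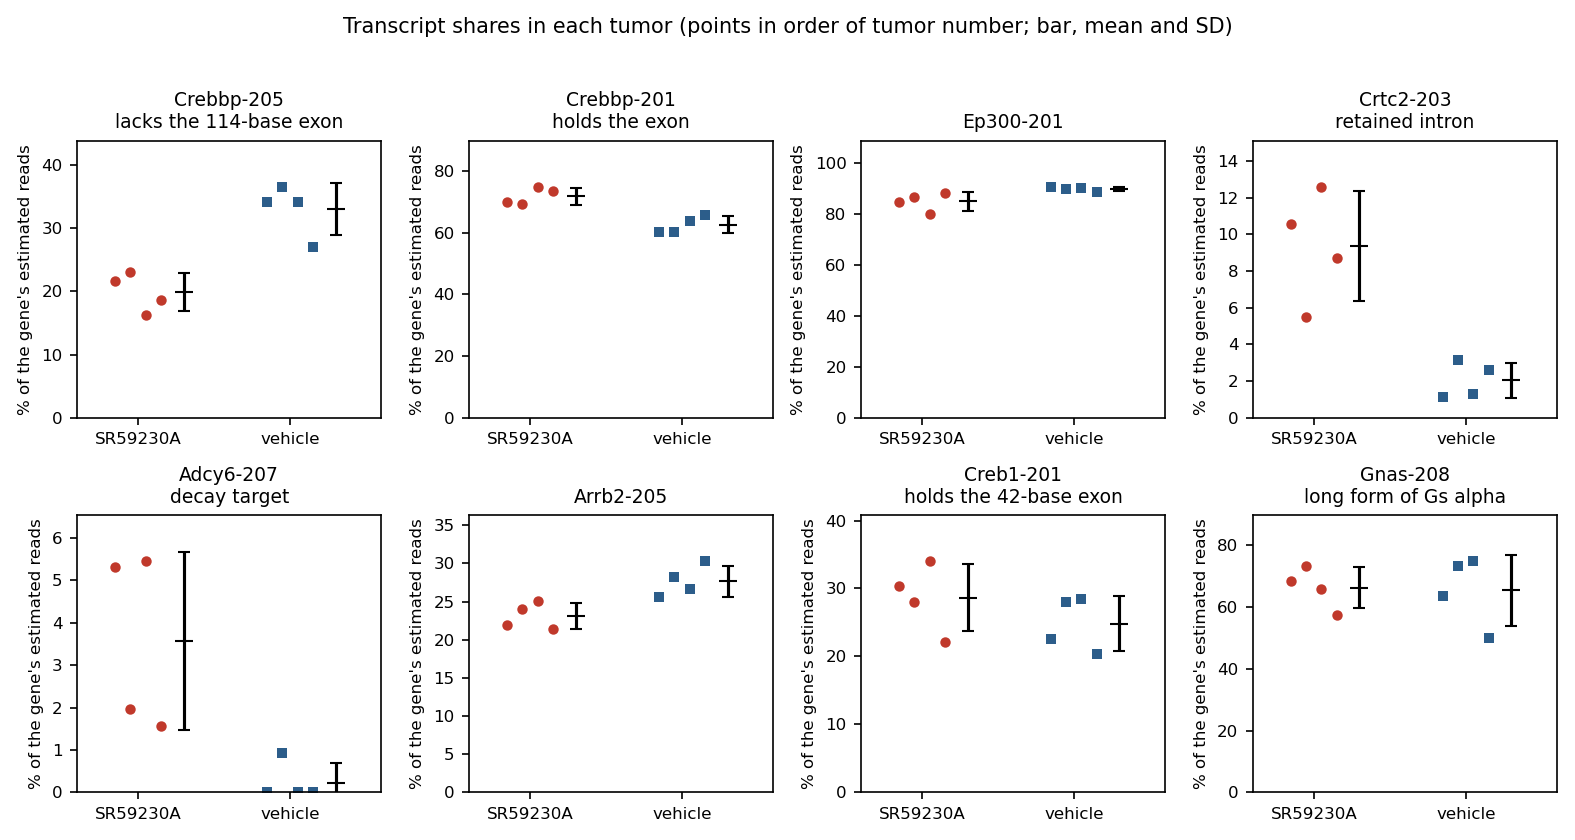
Share of a gene's estimated reads in 8 named transcripts, in each tumor, with SR59230A left and vehicle right, bars showing the mean and SD. Crebbp-205 was 16.2% to 23% in SR59230A tumors and 27.1% to 36.5% in vehicle tumors, while Creb1-201 and Gnas-208 overlapped.

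**Figure D5:**
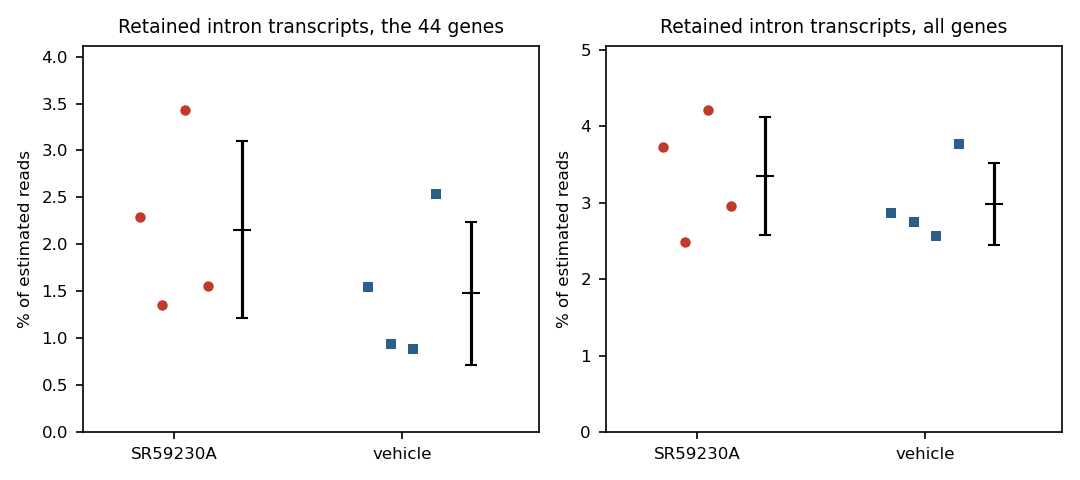
Percent of estimated reads in transcripts annotated as retained introns, for the 44 genes (left panel) and for all genes (right panel), in each tumor, with the mean and SD. SR59230A tumor 3 was highest in both panels, at 3.43% and 4.21%.

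Arrb2-205, with 421 codons, held 21.9%, 24%, 25.1% and 21.5% of Arrb2 reads in SR59230A tumors, against 25.6%, 28.3%, 26.7% and 30.3% in vehicle tumors, and the scarce Arrb2-203 held 0.801% to 4.03% with SR59230A and 4.43% to 7.37% with vehicle. In Pde4a, the retained intron transcript Pde4a-204 held 15.7% ± 4.37 with SR59230A and 5.32% ± 5.37 with vehicle, on 0 to 42 estimated reads. Prkaca-201 held 95.8%, 92.2%, 100% and 88.1% of Prkaca reads with SR59230A, against 98.1%, 96.7%, 100% and 96.3% with vehicle. Crtc3-201 held 92.5%, 96.1%, 86.5% and 92.7% with SR59230A, against 96.2%, 98.2%, 96.8% and 90.1% with vehicle, and the rest lay mostly in the retained intron transcript Crtc3-205.

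Pde4d, Prkacb and Crem have several annotated first exons. Pde4d-207, a short form of 584 codons, held 61%, 59.8%, 58.5% and 57.7% of Pde4d reads in SR59230A tumors, against 59.2%, 62.8%, 67.3% and 60.8% in vehicle tumors, and 42.1% of TPM over 8 tumors. Pde4d-218, annotated with an incomplete coding sequence, held 14.4%, 14.3%, 14.2% and 18.2% with SR59230A, against 12.6%, 14.2%, 9.33% and 9.85% with vehicle, and the groups were apart by less than 0.1 percentage points. Prkacb-202, the C beta 1 form of 351 codons, held 87.7% to 91.6% of Prkacb reads in SR59230A tumors and 88.6% to 94.4% in vehicle tumors. The longer Prkacb-201 of 398 codons held 5.5% to 7.93% with SR59230A and 4.41% to 7.28% with vehicle.

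The 7 coding Crem transcripts that start at the internal promoter, from which the repressor ICER is made, held 32.4%, 26%, 15.1% and 16.2% of Crem reads in SR59230A tumors, against 34.6%, 41.6%, 26.4% and 34.1% in vehicle tumors. The groups overlapped, on 25 to 149 estimated reads with SR59230A and 90 to 244 with vehicle. Among the 39 annotated Crem transcripts the estimates were unstable: Crem-233, the leading one, held 0% in SR59230A tumor 2 and in vehicle tumor 0, and 16.5% to 30% in the other tumors. The Simes p of Crem was 0.918 by edgeR's diffSpliceDGE.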

How the data were processed

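The 44 genes and all other lists were chosen with earlier results of these data known. The authors ran Salmon on each tumor and deposited, for every transcript, an estimated count, a TPM value and an effective length. The methods name GRCm38, and the submitters' processing notes name GRCm39, Salmon and DESeq2 without versions. Transcripts were matched by stable identifier to GENCODE M21 (GRCm38), 115685 of 116747 (99.1%). Estimated counts were summed per gene, rounded, scaled by TMM and tested with edgeR 4.0.16 in R 4.3.3 (filterByExpr, quasi-likelihood test) over all genes. DESeq2 1.42.0 and limma 3.58.1, on log2(TPM + 1) or log2(TPM + 0.1), were alternatives. TPM of a gene is the sum over its transcripts. Transcript use was tested with edgeR's diffSpliceDGE, with limma's diffSplice as an alternative. The code was tested on simulated counts. Values in every tumor are given for the 12 tested members with the smallest p, for members past the test or without overlap (none), and for the leading member of each role. Of these leading members, Gnai3 and Rapgef3 are given as mean and SD only. Transcript shares are given for the 8 members with the smallest Simes p and Gnas, Crem, Creb1, Pde4d and Prkacb. Of other lists, the 5 genes with the smallest p are named. Other genes, transcripts and contrasts by tumor number were named after their values were seen. The deposited table of normalized counts was not used. Precision covers counting and tumor spread, not assignment of reads between transcripts, and genes with near-identical copies may share reads. Some marker and receptor genes are not reported here.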

Additional observations from a re-analysis of the deposited data

Results flagged for a closer look

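A single tumor far from the other 3 was sought in 84 groups of 4 tumors (42 genes in 2 treatments, in CPM). The nominal rate of about 1 in 20 assumes separate groups, while these share the same 8 tumors. Such a tumor was found in 7 groups, or 8.33%, which without a rate over all tested genes cannot be read as an excess. In SR59230A tumors these were Gnal in tumor 4 (1.37 CPM, above the rest), Pkig in tumor 1 (19.4, above), Crem in tumor 1 (12.6, above), Pde4b in tumor 3 (26, below) and Crebbp in tumor 3 (80.9, below). In vehicle tumors these were Prkar2b in tumor 3 (36.6, below) and Pde4a in tumor 2 (4.83, below). SR59230A tumor 3 had the fewest reads of the 8 libraries and SR59230A tumor 1 the most muscle marker reads, and their part in these values was not tested.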

How the results depend on the processing

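Under 20 alternatives (DESeq2, other scaling, filters, length offset, coding transcripts, TPM, blocks and left-out tumors) the count of members called stayed 0, with 0 to 4 at an unadjusted p under 0.05 and no adjusted p of a member below 0.436. The median log2 fold change of the tested members was -0.02 and moved beyond the spread only without SR59230A tumors 1 and 2 (-0.12); leaving out single tumors gave -0.06 to -0.01. Of the 12 members with the smallest p, 10 kept their direction throughout. Crtc2 reversed from protein-coding transcripts only (-0.0797), and Crtc3 reversed on log2(TPM + 1) (0.0004) and log2(TPM + 0.1) (0.0001), both near 0; the cause was not tested. Prkar1b ran from -0.60 to -0.39, with an unadjusted p under 0.05 in 17 of 20. The exceptions were both fits on TPM and the replicate block. All 20 reused the same tumors, and Prkar1b was picked for its small p, so the 17 are not separate support. Several of the 12 members moved by over 1.5 times. Gnal (-0.67) was -1.36 with the replicate block, -1.31 without SR59230A tumor 4, -0.16 without SR59230A tumors 1 and 2 and -0.14 on log2(TPM + 1). Arrb1 (-0.24) was -0.11 without vehicle tumor 0, -0.15 without SR59230A tumor 1, -0.05 with the length offset, -0.16 with the replicate block and -0.01 on log2(TPM + 1). Crtc3 (-0.15) was -0.06 without vehicle tumor 0 and -0.05 with the length offset. Crem (-0.21) was -0.38 without SR59230A tumor 1, and Prkar2b (-0.17) was -0.11 without SR59230A tumor 3. Gnas (-0.23) was -0.13 with the replicate block. SR59230A tumor 4 and vehicle tumors 0 and 3 were left out together as the 3 libraries with reads on satellite-like transcript models, whose levels are not given here. Without them, Gnal was -1.24, Adcy9 0.52 (0.28 with all), Crtc2 0.42 (0.22) and Pkia 0.15 (0.26). None of these moves gave a call. The count of members with changed transcript use was 0 to 1 with single tumors left out and 0 under the other alternatives. The 1 was Adcy6 without vehicle tumor 1, the only vehicle tumor with reads of Adcy6-207. Calls over all genes were 18 with all tumors and 43 to 103 with 1 left out. They were 8 with transcripts of at least 5% only, and 14 by limma. The replicate number as a block (tumors 1 to 3 in both groups) called 0 members and 2 genes over all, with a median of -0.02, and 0 members and 34 genes for transcript use. No label says that a number marks shared animals or days, and the deviations of same-numbered tumors correlated at 0.01, 0.63 and 0.53 (SR59230A tumor 2 correlated best with vehicle tumor 1), so the numbers were not treated as pairs. Shares by TPM in place of reads moved for Adcy6-201 (58.8%), Crebbp-201 (55.6%), Pde4a-202 (66.8%), Arrb2-204 (56.1%), Ep300-201 (52.2%), Crtc3-201 (85.2%), Creb1-202 (36.2%) and Pde4d-207 (42.1%). The 7 tested members with under 100 estimated reads in every tumor had 95% intervals more than 1 log2 unit wide.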

Other observations

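Fibroblast markers summed to 970 to 1377 CPM in SR59230A tumors and 757 to 1164 CPM in vehicle tumors, and endothelial markers to 126 to 180 CPM with SR59230A and 151 to 186 CPM with vehicle.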
